A study of Mus musculus with 17 samples.

Results

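Transcript levels were examined for 10 mouse genes that encode Tudor domain proteins of the male germ line, Tdrd1, Tdrd3, Tdrd5, Tdrd6, Tdrd7, Tdrd9, Tdrd12, Tdrkh, Stk31 and Rnf17. They were taken by name from the 23980 genes listed in each of 2 tables, and all 10 were found in both and passed the filter on low counts in both. One table held polyA(+) RNA-seq of leptotene/zygotene (L/Z) spermatocytes, purified by fluorescence-activated cell sorting at 3 to 4 weeks after birth, from WT (n = 2), Pld6 KO (n = 2) and Dnmt3l KO (n = 2) mice. The other held whole testes at postnatal day 0 (P0) from WT (n = 2), Pld6 KO (n = 4), Dnmt3l KO (n = 2) and double knockout (DKO, n = 3) mice. Dnmt3l is written Dnmt3L in the labels, and DKO mice lacked both Pld6 and Dnmt3l. All mice were labelled C57BL6/J, and both mutant lines had been backcrossed to C57BL/6J. Germ cells of both single mutants do not pass zygotene, as the study describes them, and a whole P0 testis is mostly somatic tissue with prospermatogonia as its germ cells.

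A Tudor domain is a small fold that binds methylated arginine or lysine. In germ cells, the PIWI proteins that carry piRNAs bear dimethylated arginines near their leading end, and multi-Tudor proteins bind these marks and gather PIWI proteins, helicases and RNA into germ granules, which are the intermitochondrial cement of prospermatogonia and spermatocytes and the chromatoid body of spermatids. Pld6 encodes a mitochondrial outer membrane enzyme needed to make piRNAs, and Dnmt3l encodes the cofactor of de novo DNA methylation. The comparisons address whether transcripts of these Tudor domain genes differ when piRNA production, de novo methylation or both are lost.

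Total estimated fragments ranged from 5194238 to 14578341 in the L/Z libraries and from 9900346 to 23498968 in the P0 libraries. Pld6 had 0 fragments in both L/Z Pld6 KO libraries and at most 2 in each P0 Pld6 KO or DKO library, against 344 and 352 in L/Z WT and 57 and 40 in P0 WT. Dnmt3l had 0 fragments in both L/Z Dnmt3l KO libraries and at most 3 in each P0 Dnmt3l KO or DKO library, against 19 and 11 in L/Z WT and 53 and 72 in P0 WT. No library went against its label for the gene or genes it should lack. In CPM (fragments scaled to a common library size), Dnmt3l ranged from 0.496 to 14.6 in the P0 Pld6 KO libraries. It was at 4.50 and 6.05 CPM in P0 WT and at most 0.175 CPM in P0 Dnmt3l KO and DKO. In 2 L/Z libraries, WT replicate 1 and Pld6 KO replicate 1, the ribosomal RNA gene Rn45s took 8.27% and 8.06% of fragments. In the other 4 it took at most 0.301%. At P0 it took 0.0% in every Pld6 KO library and 0.104% to 0.656% in WT and Dnmt3l KO. The DKO libraries had 4.43%, 0.981% and 0.318%. The part of Rn45s in the P0 comparisons was not tested. At P0, the summed level of 9 prospermatogonia markers was 74.9 CPM in Pld6 KO replicate 1, against 126 to 275 CPM in the other 10 libraries. The summed level of 8 markers of pachytene and later germ cells was 78.6 CPM in Dnmt3l KO replicate 1, against 2.44 to 7.93 CPM elsewhere. Of these 8, 3 passed the filter on low counts at P0. In bulk samples such as these, fewer cells of a type and less RNA per cell cannot be told apart.

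Each of the 10 genes lies on its own locus, spread over 9 chromosomes, with Tdrd3 and Rnf17 both on chromosome 14. Tdrd6 lies at chr17:43615334-43631846, Tdrd9 at chr12:111971488-112068854, Tdrd1 at chr19:56826171-56870012 and Stk31 at chr6:49395506-49469506 in RefSeq's annotation of GRCm38.p6, the assembly of which mm10 is the UCSC version. Tdrd9 overlaps the protein-coding gene Rd3l, which reached at most 0.0868 CPM in any library, and Tdrkh overlaps Oaz3, which reached at most 11.2 CPM at L/Z and 0.908 CPM at P0. Start sites were matched by symbol in RefSeq's promoter table (GRCm38.p6) for 8 of the 10 genes, Tdrd6 and Rnf17 being the others. Within the 250 bases before a start, the letters CACGTG, the E-box that basic helix-loop-helix proteins such as MAX recognise, were found in 3 of these 8 genes (Tdrd1, Tdrd9 and Stk31), while 6.86% of the 27025 genes in the table held them at any start. These letters read the same on both strands, and no other motif was searched. The 30 bases around each match, on the plus strand and with the motif in capitals, are shown because these 3 members share the letters before a listed start.
Tdrd1, chr19:56826186-56826215: tggggctgcgcgCACGTGggagtaaactgc
Tdrd9, chr12:111971382-111971411: ggtctccataaaCACGTGcctgtccaggtc
Tdrd9, chr12:111971452-111971481: gcacgaggctccCACGTGcatgcagggcct
Stk31, chr6:49395472-49395501: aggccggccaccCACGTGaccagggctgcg

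The motif began 11 bases before the first listed start of Tdrd1, 55 before that of Stk31, and 165 and 95 before that of Tdrd9. The Tdrd1 stretch lies inside the annotated span of the gene, whose annotated start comes before the first start listed in the promoter table. A match of letters is a description of the sequence and not a bound site.

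In WT L/Z spermatocytes, 9 of the 10 genes were well expressed and Tdrd6 was near the limit of detection. On the length-scaled FPKM values, Stk31, which encodes a protein with a kinase-like domain beside its Tudor domain, was highest at 58.8 and 87.3 in the 2 libraries. Tdrkh, whose protein anchors PIWI proteins at mitochondria, followed at 48.4 and 66.5, Tdrd9, an RNA helicase that partners MIWI2, at 44.9 and 56.8, and Rnf17, a RING finger protein of its own granules, at 41.0 and 50.6. The ranges of these 4 neighbours overlapped, so their order was not set by the 2 libraries. Tdrd1, the scaffold that binds MILI, was below them at 39.3 and 37.5. Then came Tdrd7, which remodels the chromatoid body, at 28.5 and 35.7, Tdrd12, a helicase-related partner of MILI, at 24.8 and 25.03, Tdrd5, a LOTUS domain protein of the chromatoid body, at 17.9 and 24.1, and Tdrd3, at 6.75 and 9.49. From Rnf17 downwards no 2 neighbours overlapped. Tdrd6, an architectural protein of the chromatoid body of later stages, was lowest at 0.345 and 0.544.

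In WT P0 testes the order differed. Tdrd3, which pairs with the topoisomerase TOP3B and is used in many somatic tissues, was highest at 20.9 and 20.3 FPKM, and Tdrd7 was second at 8.17 and 8.62. Stk31, at 5.17 and 5.39, overlapped Tdrd1, at 5.86 and 4.15, which overlapped Tdrd9, at 5.46 and 4.40. Tdrd5 (3.57 and 3.53), Tdrkh (2.88 and 3.65), Tdrd12 (2.91 and 2.41) and Rnf17 (2.57 and 2.73) formed a second run of overlapping neighbours. Tdrd6 was lowest again, at 0.254 and 0.483. The 2 tables were normalised separately and differ in tissue, read type and RNA input, so levels were not tested between them. Listed side by side, Tdrd3 was the member with a lower WT FPKM at L/Z than at P0 (means 8.12 and 20.6), Tdrd6 was close in both (means 0.445 and 0.368), and the other 8 were listed higher at L/Z.

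**Figure D1:**
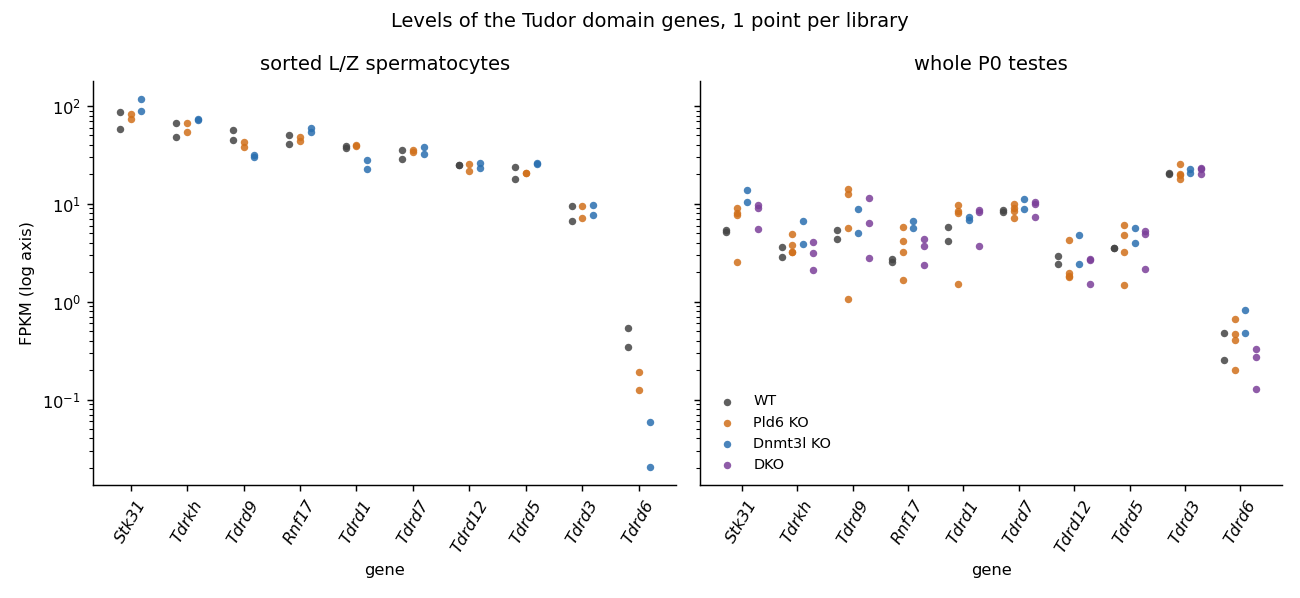
FPKM of the 10 Tudor domain genes (log axis) in each library of L/Z spermatocytes (left) and of whole P0 testes (right), coloured by genotype, with genes ordered by WT level at L/Z. Tdrd6 sits lowest in both panels, at 0.0205 to 0.544 FPKM at L/Z, and Tdrd3 is highest at P0.

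Loss of Pld6 left the Tudor domain transcripts of L/Z spermatocytes without a call. A gene was called when its adjusted p (FDR, edgeR's quasi-likelihood test with Benjamini-Hochberg adjustment over all 14662 genes tested) was under 0.05 and its fold change was over 2. Of the 10 members, 0 were called in Pld6 KO against WT, where 0.225% of all genes tested were called, and DESeq2 and limma also called 0. At an unadjusted p under 0.05 stood 1 of the 10, Tdrd6, against 9.17% of all genes. The members' median log2 fold change was 0.03, and that of all genes tested was 0.00.

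Tdrd6 had 28 and 44 fragments in WT and 9 and 11 in Pld6 KO, or 2.37 and 3.74 CPM against 1.31 and 0.867 CPM. Both Pld6 KO libraries were thus below both WT libraries. The log2 fold change was -1.51 (SE 0.63, 95% interval -2.90 to -0.13, FDR = 0.512). The largest change upwards was that of Tdrd7, at 0.11 (SE 0.21, FDR = 0.889). Tdrd6 and Tdrd9 were the members whose Pld6 KO libraries all lay below WT, as did those of 21.3% of genes tested, and for the 9 members other than Tdrd6 the 95% intervals spanned from -0.78 to 0.65. Tdrd1 in particular stood at 185 and 177 CPM in WT and 182 and 191 CPM in Pld6 KO, with an interval of -0.41 to 0.49.

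In Dnmt3l KO L/Z spermatocytes Tdrd6 fell, and it was the 1 member called. It had 2 and 2 fragments, against 28 and 44 in WT, which is 0.400 and 0.143 CPM against 2.37 and 3.74 CPM. Both Dnmt3l KO libraries lay below all WT and Pld6 KO libraries. The log2 fold change was -3.70 (SE 0.79, 95% interval -5.43 to -1.96, FDR = 0.0241). Over both libraries, 4 fragments in Dnmt3l KO stood against 72 in WT, a ratio of 0.0690 after scaling by library size, with an exact 95% interval of 0.0183 to 0.185 that covers counting error only. In this comparison 1.58% of all genes tested were called lower. At an unadjusted p under 0.05 were 3 of the 10 members, Tdrd1, Tdrd6 and Tdrd9, against 26.7% of all genes.

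The call rested on every one of the 4 libraries compared. Without WT replicate 1 the FDR was 0.0638, without WT replicate 2 it was 0.0577, without Dnmt3l KO replicate 1 it was 0.152 and without Dnmt3l KO replicate 2 it was 0.122, while the log2 fold change stayed between -4.33 and -2.89. In each of these fits the lone library left in a group was assumed to vary like the other groups. DESeq2 set no adjusted p for Tdrd6, and limma called 0 members, with log2 fold changes for Tdrd6 of -0.47 on log2(FPKM + 1) (adjusted p = 0.131) and -1.95 on log2(FPKM + 0.1) (adjusted p = 0.114).

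**Figure D2:**
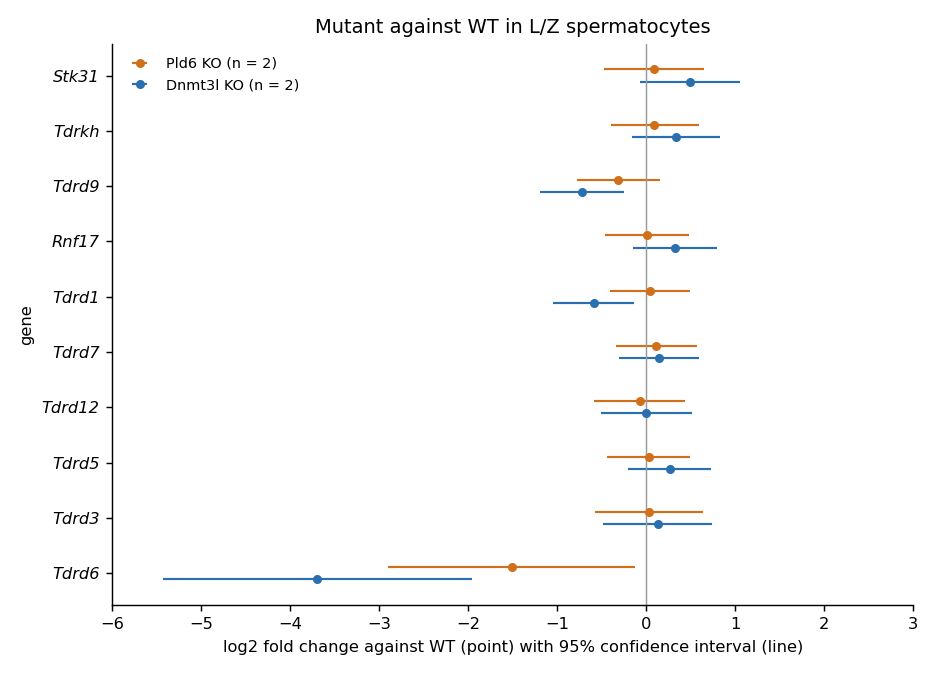
Log2 fold change against WT (points) with 95% confidence intervals (lines) for the 10 genes in L/Z spermatocytes of Pld6 KO (orange) and Dnmt3l KO (blue) mice, 2 libraries a group. Tdrd6 stands apart in Dnmt3l KO at -3.70, and the other 9 genes lie between -0.72 and 0.49 in both mutants.

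Tdrd9 and Tdrd1 were also lower in every Dnmt3l KO library than in every WT library, without passing the test. Tdrd9 was at 208 and 263 CPM in WT, 176 and 201 CPM in Pld6 KO and 145 and 141 CPM in Dnmt3l KO, so that the 3 groups did not overlap. Its log2 fold change in Dnmt3l KO was -0.72 (SE 0.21, 95% interval -1.19 to -0.25, FDR = 0.0634), and DESeq2 gave -0.71 with an adjusted p of 0.0147, still under the 2-fold limit. Tdrd1 was at 106 and 134 CPM in Dnmt3l KO, below the 4 libraries of WT and Pld6 KO, which ranged from 177 to 191 CPM. Its log2 fold change was -0.59 (SE 0.21, 95% interval -1.05 to -0.14, FDR = 0.101), and DESeq2 gave -0.59 with an adjusted p of 0.0466. With Tdrd6 these made 3 of 10 members whose Dnmt3l KO libraries all lay below WT, as did those of 27.5% of genes tested.

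Another 3 members, Tdrd5, Tdrkh and Rnf17, had both Dnmt3l KO libraries above both WT libraries, as did 28.1% of genes tested. Rnf17 was at 204 and 252 CPM in WT and 266 and 301 CPM in Dnmt3l KO, and Tdrkh at 119 and 164 against 176 and 180 CPM. Stk31 was at 179 and 267 CPM in WT and 265 and 361 CPM in Dnmt3l KO, which overlapped. The log2 fold changes of these 4 lay between 0.27 and 0.49, and those of Tdrd3, Tdrd7 and Tdrd12 between 0.00 and 0.14, all with FDR of at least 0.241. The median of all 10 members was 0.13, beside -0.04 for all genes tested. Summed over the members, the level was 1109 and 1387 CPM in WT, 1173 and 1303 CPM in Pld6 KO and 1229 and 1374 CPM in Dnmt3l KO, with the 3 groups overlapping.

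The markers of germ cell stage differed between these libraries as well. At FDR under 0.05 with no fold limit, 5.27% of all genes tested were higher and 1.93% lower in Dnmt3l KO. Of 11 L/Z markers, 7 rose at that threshold (Dmc1, Hormad1, Meiob, Prdm9, Smc1b, Sycp1 and Sycp2), by 2.13-fold (Smc1b) to 4.51-fold (Meiob), and the summed level of the 11 was 2454 and 4260 CPM in WT, 3142 and 4862 CPM in Pld6 KO and 8486 and 8020 CPM in Dnmt3l KO. Of 6 spermatogonia markers, 1 fell, Sohlh1, with a log2 fold change of -1.11 (SE 0.25, FDR = 0.0291), and their sum was 1185 and 1034 CPM in WT against 533 and 792 CPM in Dnmt3l KO. The 8 markers of pachytene and later cells summed to 19.5 and 39.6 CPM in WT, 4.797 and 13.5 CPM in Pld6 KO and 13.2 and 7.37 CPM in Dnmt3l KO, and none of the 8 was at 0 in every library. Of these 8, 2 passed the filter on low counts at L/Z, Ldhc and Tnp1. In Dnmt3l KO they were at -1.53 (SE 0.59, FDR = 0.129) and -0.03 (SE 0.76, FDR = 0.986) on the log2 scale. In Pld6 KO they were at -1.88 (SE 0.59, FDR = 0.367) and 1.02 (SE 0.70, FDR = 0.671). The 5 Sertoli markers summed to 128 and 85.4 CPM in WT against 66.2 and 26.1 CPM in Dnmt3l KO. The 6 Leydig markers (18.7 and 13.9 against 6.60 and 6.66 CPM) and 3 blood markers (5.59 and 1.53 against 1.00 and 0.716 CPM) were also lower. Other somatic lists overlapped. The 3 macrophage markers summed to 13.7 and 3.825 CPM in WT against 6.80 and 30.8 CPM, and the 3 peritubular myoid markers to 143 and 37.8 against 38.2 and 135 CPM. The part of these differences in the lower Tdrd6 was not tested.

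The rest of the pathway was read from 17 PIWI and piRNA genes chosen beside the Tudor members. In Dnmt3l KO, 2 of them rose and 2 fell at FDR under 0.05, beside the 5.27% and 1.93% of all genes given above. Piwil1, the PIWI protein of pachytene piRNAs, fell from 30.2 and 33.2 CPM in WT to 6.20 and 6.65 CPM (log2 fold change -2.29, SE 0.31, FDR = 0.00514). It stood at 12.4 and 19.2 CPM in Pld6 KO, between the other groups as Tdrd6 did, 1.99-fold lower than WT (95% interval of the log2 fold change -1.63 to -0.36, FDR = 0.326). Henmt1, which methylates the ends of piRNAs, fell by 1.16 on the log2 scale (SE 0.31, FDR = 0.0468). Asz1, a mitochondrial protein of the germ granule, rose by 0.85 (SE 0.20, FDR = 0.0305), and Exd1, which binds Tdrd12, rose by 0.94 (SE 0.25, FDR = 0.0444). At an unadjusted p under 0.05, 4 of the 17 were higher and 4 lower in Dnmt3l KO, against 26.7% of all genes in either direction. The list's median was 0.15. In Pld6 KO 0 of the 17 passed, and 1 was at an unadjusted p under 0.05. The 4 with the highest mean level, Hsp90aa1, Tex15, Ddx4 and Mov10l1, did not pass in either mutant.

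The enzymes that place the arginine marks, Prmt5 with its partner Wdr77 and Prmt1, had 0 of 3 genes past the test in either mutant, and 0 at an unadjusted p under 0.05. The median of the 3 was -0.14 after Pld6 loss and -0.22 after Dnmt3l loss. Prmt5 was at 142 and 144 CPM in WT and 115 and 130 CPM in Dnmt3l KO. Of Tudor domain genes outside the germ granule, 8 were analysed here. In Dnmt3l KO 1 rose, Arid4a, a chromatin regulator, from 23.3 and 23.97 CPM to 70.0 and 47.2 CPM (2.47-fold, 95% interval of the log2 fold change 0.71 to 1.90, FDR = 0.0234), and the list's median was 0.10. In Pld6 KO 0 of the 8 passed. At an unadjusted p under 0.05 were 2 of the 8 in each mutant.

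Set directly against Pld6 KO, Dnmt3l KO spermatocytes had 0 of 10 members called by edgeR, where 0.0477% of all genes were called. Limma also called 0, and DESeq2 called 0 of the 9 members other than Tdrd6, for which it set no adjusted p. At an unadjusted p under 0.05 were 2 members, Tdrd1 and Tdrd6, against 17.5% of all genes. Tdrd6 had a log2 fold change of -2.18 (SE 0.85, 95% interval -4.04 to -0.33, FDR = 0.227), and Tdrd1 one of -0.63 (SE 0.21, FDR = 0.186). The largest in the other direction was Stk31, at 0.40 (SE 0.25, FDR = 0.437).

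**Figure D3:**
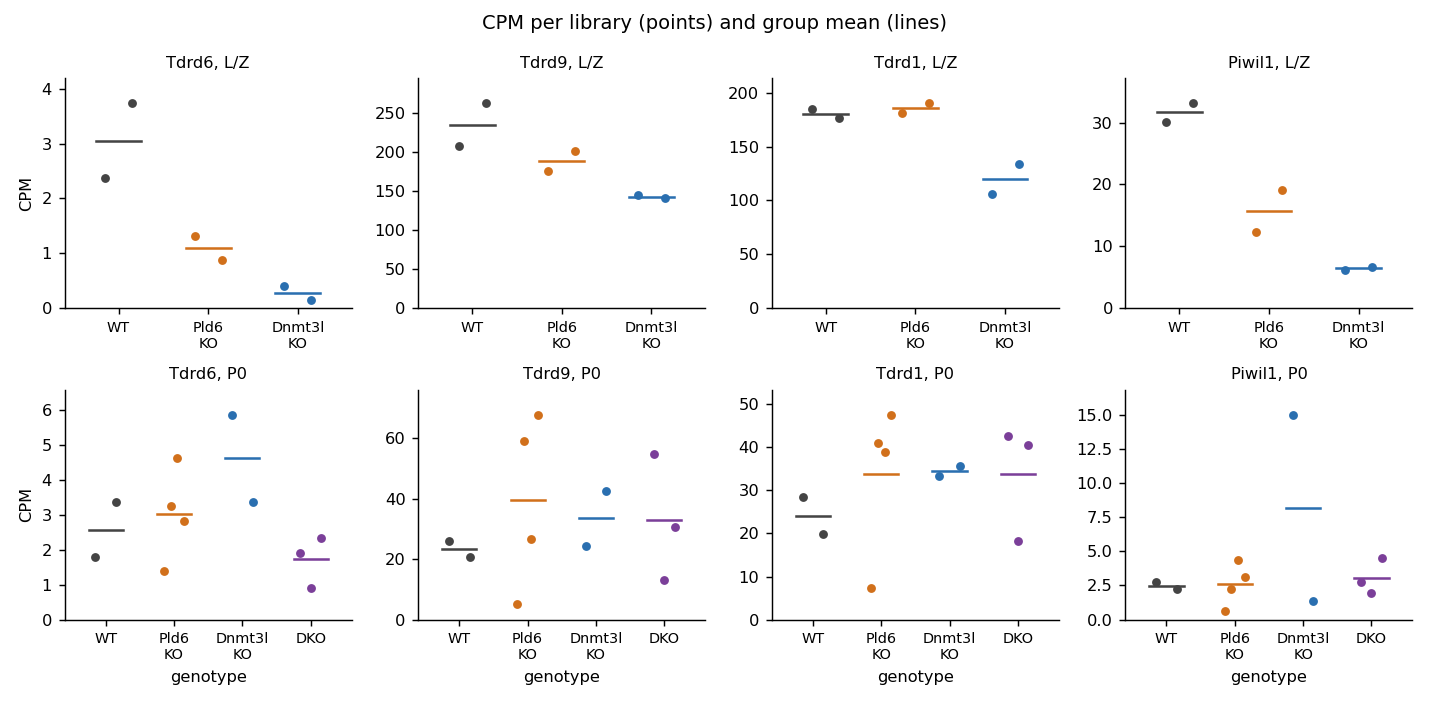
CPM of Tdrd6, Tdrd9, Tdrd1 and Piwil1 in each library (points) with the group mean (line), at L/Z (top) and P0 (bottom), each panel on its own axis from 0. At L/Z the Dnmt3l KO points are lowest in all 4 panels. At P0 the Dnmt3l KO points of Tdrd6 are at 5.88 and 3.38 CPM, beside WT points at 1.78 and 3.36 CPM.

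At P0, loss of Pld6 gave 0 members called among 10, by edgeR, DESeq2 or limma, where 0.00629% of all 15901 genes tested were called. The deleted Pld6 was itself not called by edgeR (log2 fold change -5.11, SE 0.70, FDR = 0.0585). A missing call in this comparison therefore does not show an unchanged level. At an unadjusted p under 0.05 were 0 members, against 5.06% of all genes. The 4 Pld6 KO libraries spread widely. Tdrd9 was at 25.9 and 20.7 CPM in WT and at 5.04, 59.2, 26.6 and 67.8 CPM in Pld6 KO, the largest change upwards (log2 fold change 0.77, SE 0.71, FDR = 0.97). Tdrd1 was at 28.4 and 19.9 CPM in WT and 7.27, 41.0, 39.0 and 47.6 CPM in Pld6 KO. The lowest value of both genes was that of replicate 1, the library lowest in prospermatogonia markers, and the other 3 Pld6 KO libraries were above both WT libraries. The largest change downwards was that of Tdrd12, at -0.12 (SE 0.43, FDR = 0.991). No member had all Pld6 KO libraries above, or all below, both WT libraries, against 11.5% of genes tested. Without Pld6 KO replicate 1 and Dnmt3l KO replicate 1, the 2 libraries that stood apart, 0 members were called in any P0 comparison, and the log2 fold change of Tdrd9 was 1.13 (adjusted p = 0.817).

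In P0 Dnmt3l KO testes all 10 members had a positive log2 fold change, from 0.12 to 1.24. Their median was 0.52, beside 0.03 for all genes tested. By edgeR, DESeq2 or limma 0 members were called, as were 0% of all genes by edgeR. The deleted Dnmt3l was itself not called by edgeR (log2 fold change -5.23, SE 1.39, FDR = 0.257). A missing call here therefore does not show an unchanged level. In 8 of the 10, all but Tdrd9 and Tdrd12, both Dnmt3l KO libraries lay above both WT libraries, as did those of 25.3% of genes tested. Rnf17 was at 13.1 and 13.8 CPM in WT and 34.2 and 29.2 CPM in Dnmt3l KO (log2 fold change 1.24, SE 0.43, 95% interval 0.32 to 2.16, FDR = 0.314). Stk31 was at 16.2 and 16.7 CPM in WT and 44.0 and 32.8 CPM in Dnmt3l KO (1.22, SE 0.44, 95% interval 0.28 to 2.16, FDR = 0.318). These were the 2 members at an unadjusted p under 0.05, against 12.9% of all genes.

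Tdrd6, which fell at L/Z, had 21 and 40 fragments in WT and 67 and 39 in Dnmt3l KO at P0, or 1.78 and 3.36 against 5.88 and 3.38 CPM. The 1st of these Dnmt3l KO libraries is the one with 78.6 CPM of late germ cell markers, and it was also the highest of all 11 libraries for Tdrd6, Tdrd12, Tdrkh, Stk31 and Rnf17. The 11 L/Z markers summed to 266 CPM there, against 62.3 to 165 CPM in the others. Of the 3 late markers tested at P0, Ldhc had a log2 fold change in Dnmt3l KO of 4.68 (SE 1.03, FDR = 0.256). Adam3 was at 4.35 (SE 1.08, FDR = 0.256), but Acr was at -0.07 (SE 0.89, FDR = 0.981). The part of the L/Z and late markers in the members' levels was not tested. Without Dnmt3l KO replicate 1, Rnf17 had a log2 fold change of 1.11 and Stk31 one of 0.99, with the lone Dnmt3l KO library assumed to vary like the other groups.

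In DKO testes 0 members were called against WT by edgeR, DESeq2 or limma, where 0.0126% of all genes were called, and 0 were at an unadjusted p under 0.05, against 7.97% of all genes. The largest changes were those of Stk31, at 0.64 (SE 0.40, FDR = 0.737), and Tdrd6, at -0.56 (SE 0.53, FDR = 0.844). Stk31 was at 29.0, 17.4 and 30.5 CPM in DKO, and it was the 1 member with every DKO library above both WT libraries, as were 15.7% of genes tested. Tdrd6 was at 1.92, 0.910 and 2.35 CPM in DKO, which overlapped WT. The median over the members was 0.20, beside 0.01 for all genes.

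**Figure D4:**
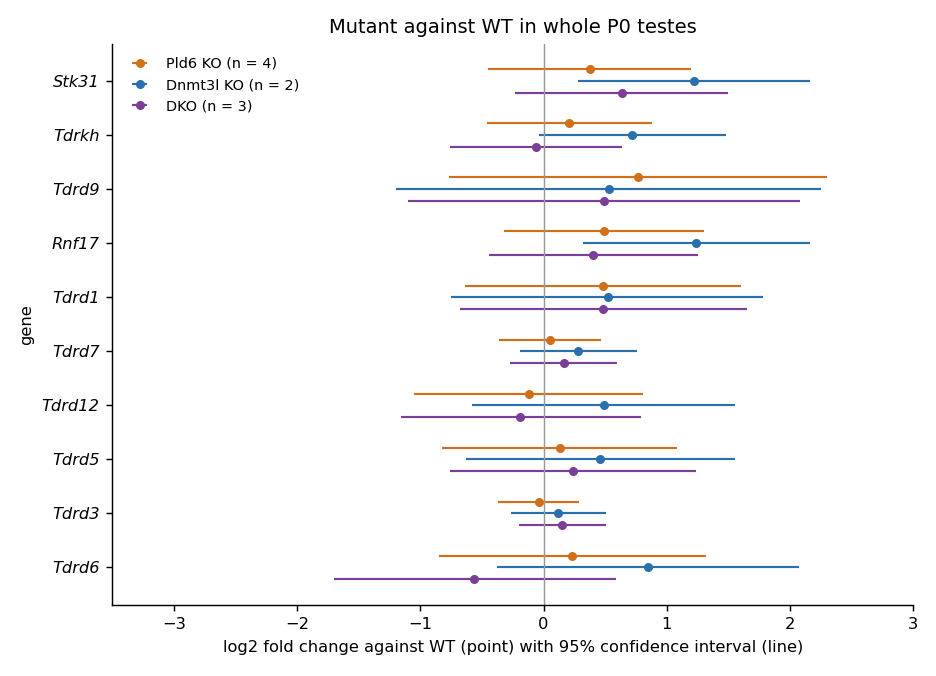
Log2 fold change against WT (points) with 95% confidence intervals (lines) for the 10 genes in whole P0 testes of Pld6 KO (n = 4, orange), Dnmt3l KO (n = 2, blue) and DKO (n = 3, purple) mice. The intervals of Tdrd3 and Tdrd7 are the narrowest and those of Tdrd9 the widest, and the interval lies above 0 for Stk31 and Rnf17 in Dnmt3l KO.

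The remaining P0 comparisons asked how the mutations combined. DKO against Pld6 KO had 0 members called (0% of all genes) and 0 at an unadjusted p under 0.05 (6.02% of all genes), with extremes of 0.26 for Stk31 (SE 0.33, FDR = 0.905) and -0.79 for Tdrd6 (SE 0.45, FDR = 0.844). DKO against Dnmt3l KO had 0 called (0.0755% of all genes) and 3 at an unadjusted p under 0.05 (17.8% of all genes), which were Tdrd6 at -1.40 (SE 0.51, FDR = 0.192), Rnf17 at -0.83 (SE 0.38, FDR = 0.27) and Tdrkh at -0.78 (SE 0.32, FDR = 0.231), while Tdrd3 was the 1 member above 0, at 0.03 (SE 0.16, FDR = 0.931). Without Dnmt3l KO replicate 1 these 3 values were -0.95, -0.71 and -0.33, and the adjusted p was at least 0.773. DESeq2 and limma called 0 in both comparisons.

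Averaged over the other genotype, loss of Pld6 had 0 members called (0.044% of all genes) and 0 at an unadjusted p under 0.05 (12.7% of all genes), with extremes of 0.36 for Tdrd9 (SE 0.51, FDR = 0.79) and -0.58 for Tdrd6 (SE 0.36, FDR = 0.509). Loss of Dnmt3l had 0 called (0% of all genes) and 2 at an unadjusted p under 0.05 (9.6% of all genes), Stk31 at 0.74 (SE 0.27, FDR = 0.462) and Rnf17 at 0.58 (SE 0.27, FDR = 0.518), and all 10 members had values above 0. The departure of DKO from the sum of the single mutants, called on FDR alone, had 0 called (0% of all genes) and 3 at an unadjusted p under 0.05 (10.9% of all genes), Tdrd6 at -1.63 (SE 0.73, FDR = 0.447), Rnf17 at -1.32 (SE 0.54, FDR = 0.436) and Tdrkh with a 95% interval of -1.96 to -0.03 (FDR = 0.448). The 1 positive departure was that of Tdrd3, at 0.07 (SE 0.23, FDR = 0.914). DESeq2 called 0 in these 3 comparisons.

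Across the 11 P0 libraries, with genotypes pooled and group means not removed, most members rose and fell together. Tdrd9 ranged from 5.04 to 67.8 CPM, 13.5-fold, Tdrd1 6.55-fold, Tdrd6 6.46-fold and Stk31 5.50-fold. Tdrd3 ranged 1.41-fold and Tdrd7 1.61-fold. In Pld6 KO replicate 1, 6 members (Tdrd1, Tdrd5, Tdrd7, Tdrd9, Stk31 and Rnf17) had their lowest value of all 11 libraries, and in DKO replicate 2, where the 9 prospermatogonia markers were the 2nd lowest at 126 CPM, Tdrd6, Tdrd12 and Tdrkh had theirs. Tdrd3 was 10th and 11th from the lowest in these libraries.

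**Figure D5:**
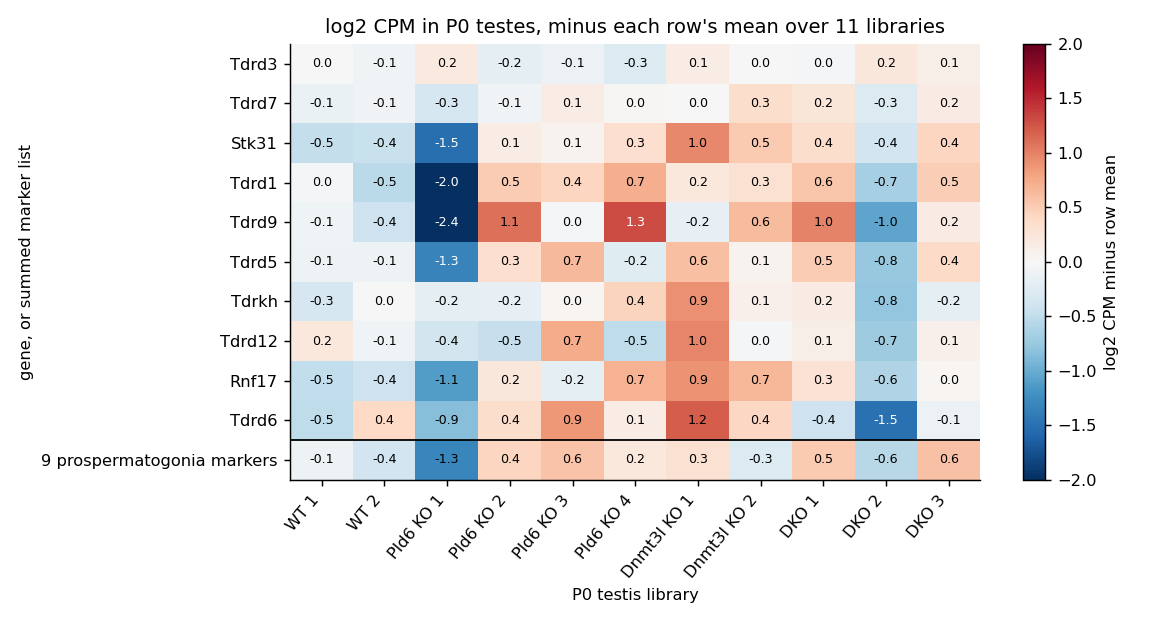
Log2 CPM of the 10 genes and of the summed 9 prospermatogonia markers in each P0 library, minus the row's mean over the 11 libraries (red above, blue below). Pld6 KO replicate 1 and DKO replicate 2 are low for most genes and for the markers, with Tdrd9 at -2.45 and -1.05, and the Tdrd3 row stays between -0.27 and 0.23.

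Taken per unit of prospermatogonia markers, the spread narrowed for some members and widened for others. The SD of log2 CPM over the 11 libraries was 0.61 for Tdrd5 and became 0.24 for its ratio to the markers, for Tdrd1 it went from 0.80 to 0.34, for Stk31 from 0.67 to 0.41, for Tdrd9 from 1.08 to 0.71, for Rnf17 from 0.63 to 0.51 and for Tdrd6 from 0.78 to 0.68. It widened from 0.16 to 0.68 for Tdrd3, from 0.21 to 0.48 for Tdrd7, from 0.43 to 0.58 for Tdrkh and from 0.52 to 0.58 for Tdrd12. Pearson's r of a member with the mean of the other 9 was 0.92 for Stk31, 0.88 for Tdrd5 and Rnf17, 0.86 for Tdrd1, 0.77 for Tdrd7, 0.72 for Tdrd9, 0.71 for Tdrd6, 0.65 for Tdrkh, 0.48 for Tdrd12 and -0.51 for Tdrd3, so Tdrd3 did not follow the other members in whole P0 testes. With the marker level as a covariate, 0 members were called in any P0 comparison.

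The genes outside the list whose log2 CPM over the 11 P0 libraries was most like the members' mean profile, by Pearson's r among 15891 genes, were Heatr1 (0.961), Dnaic1 (0.937), Tcfl5 (0.937), Mov10l1 (0.936) and Gm44 (0.936). Mov10l1, the piRNA precursor helicase, ranged from 7.68 to 40.8 CPM and was lowest in Pld6 KO replicate 1. Over the 6 L/Z libraries the members' mean profile ranged only from -0.12 to 0.29. The genes most like it, among 14652, were Nat14 (0.991), Pex14 (0.985), Pi4k2a (0.984), Xbp1 (0.978) and Ciart (0.975). Most members did not follow a common profile at L/Z. Pearson's r of a member with the mean of the other 9 was 0.84 for Tdrd9. For every other member it lay between -0.27 (Stk31) and 0.31 (Tdrd1). The listed L/Z genes were thus like an average of members that mostly did not vary together. The points of each correlation share libraries and depth, and the values are descriptions.

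At P0, of the 17 PIWI and piRNA genes 0 passed in Pld6 KO, Dnmt3l KO or DKO against WT, with medians of 0.18, 0.53 and 0.38, and 0, 0 and 1 were at an unadjusted p under 0.05. Of the 3 arginine methylation genes and the 8 other Tudor domain genes 0 passed, with medians of -0.15, 0.01 and -0.28 for the former and -0.06, -0.27 and -0.05 for the latter.

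The difference between the stages was tested in 1 fit of the 14 libraries of WT, Pld6 KO and Dnmt3l KO, over 16547 genes and on FDR alone. The effect of Dnmt3l loss on Tdrd6 differed between L/Z and P0 by -4.58 on the log2 scale (SE 0.96, 95% interval -6.64 to -2.52, FDR = 0.0456), and it was the 1 member called, where 0.212% of all genes were called below 0. At an unadjusted p under 0.05 it was also the 1 member, against 17.2% of all genes. DESeq2 gave -4.61 with an adjusted p of 0.00504, but the call was lost with the replicate block (FDR = 0.11) and with DESeq2 size factors in edgeR (FDR = 0.0501), and Tdrd6 was not tested under a filter of at least 50 counts on average. It was also lost without any 1 of 7 of the 8 WT and Dnmt3l KO libraries, with FDR from 0.0758 to 0.203, and held without P0 Dnmt3l KO replicate 2 (FDR = 0.0406). For Pld6 loss 0 members differed between the stages (0.0121% of all genes were called), 0 by DESeq2, and 1 was at an unadjusted p under 0.05, Tdrd6 at -1.77 (SE 0.79, FDR = 0.503), against 9.52% of all genes. The largest positive difference was that of Tdrd3, at 0.05 (SE 0.28, FDR = 0.976). Stage cannot be told apart from tissue, purity and read type in this comparison.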

How the data were processed

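PolyA(+) RNA-seq of 6 L/Z spermatocyte and 11 P0 testis libraries was used. The authors mapped reads to mm10 with TopHat2 and ran Cuffdiff with RefSeq genes (full version numbers not given in the sources used here), and deposited per gene and library estimated counts (fragments, not all whole) and FPKM. Counts were rounded, and 6 genes (L/Z) and 2 genes (P0) with a failed status were left out. The tables number replicates from 0 and the labels from 1, so they were matched in order within a group, and no group depends on that match.

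Counts passing filterByExpr (14662 and 15901 genes) were scaled by TMM and tested with edgeR 4.0.16 (quasi-likelihood test, R 4.3.3), all groups of a stage in one fit, with Benjamini-Hochberg adjustment. A gene was called at FDR under 0.05 and fold over 2 (FDR alone for departures and stage differences). Lists were described by counts and medians. The test was checked on simulated data, in which the changed genes averaged over 50 counts. Tdrd6 does not reach that level, so the check does not cover it. Alternatives were DESeq2 1.42.0, limma 3.58.1 on log2(FPKM + 1) and log2(FPKM + 0.1), other scaling and filters, the compared groups alone and replicate blocks. Others were a factor for Rn45s-rich libraries (L/Z only), an offset for GC content and length, a marker covariate (P0 only) and leaving out libraries. Promoter sequences came from RefSeq (GRCm38.p6). The labels call replicates biological, but do not say how many animals each held. The edgeR p-values set a group difference against the spread between these libraries, estimated over all groups of a fit.

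Members and lists were chosen with earlier results of these data known. A member's log2 fold change was named at FDR under 0.05, and where none passed the largest in each direction, with those at an unadjusted p under 0.05 added after values were seen. List genes were named at FDR under 0.05 or for high level.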

Additional observations from a re-analysis of the deposited data

Results flagged for a closer look

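The effect of Dnmt3l loss on Tdrd6 differed between the stages, by -4.58 on the log2 scale in the fit of both tables (SE 0.96, FDR = 0.0456), with a log2 fold change of -3.70 at L/Z and 0.85 at P0. Its counts at L/Z were 2 and 2 in Dnmt3l KO. The FDR was 0.11 with the replicate block and 0.0501 with DESeq2 size factors, and without 1 library it ranged from 0.0406 to 0.203.

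Tdrd12 stood at 6.25 CPM in P0 Pld6 KO replicate 3, against 2.62 to 2.89 CPM in the other 3 Pld6 KO libraries, a gap of 0.925 of the group's range, above Dixon's limit for 4 samples. Of the 10 members tested in this way, 1 stood out, and chance marks about 1 in 20 such groups. The value is 73 fragments against 26 to 35.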

How the results depend on the processing

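The number of members called was the same as reported in 208 of 225 alternative fits over the 13 comparisons. For L/Z Dnmt3l KO against WT, where Tdrd6 was called, 0 were called with a mean of at least 50 counts, which Tdrd6 does not reach, and 0 by limma on log2(FPKM + 1) or log2(FPKM + 0.1), where Tdrd6 had log2 fold changes of -0.47 and -1.95. Leaving out 1 library gave 0 in each of 4 fits (lowest 0, highest 0). DESeq2 gave Tdrd6 no adjusted p, so that fit has no count. Tdrd6 was called under the other alternatives, with an FDR of up to 0.046 (offset for GC content and length). For the stage difference of Dnmt3l loss, 0 were called with DESeq2 size factors (FDR = 0.0501), with the replicate block (FDR = 0.11) and under the 50-count filter, and leaving out 1 library gave from 0 to 1. The causes were not tested beyond the filter.

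Replicate numbers did not pair the samples across all groups. At L/Z, replicates 1 of WT and Pld6 KO shared a high Rn45s share, 8.27% and 8.06% of fragments. The deviations of same-numbered L/Z libraries correlated at 0.485 (WT and Pld6 KO), -0.144 (WT and Dnmt3l KO) and -0.135 (Pld6 KO and Dnmt3l KO). The replicate block kept Tdrd6 called in L/Z Dnmt3l KO (FDR = 0.0304), and changed no call but that of the stage difference. With the Dnmt3l KO numbers crossed, 1 member was called against WT, a pairing chosen after seeing the data.

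Of 535 alternative values of 31 member differences, 11 turned in sign, all of members that were not called. Tdrd7 in L/Z Pld6 KO ranged from -0.04 to 0.29 when 1 library was left out, Tdrd12 in P0 Pld6 KO from -0.52 to 0.02, Stk31 in DKO against Pld6 KO from -0.01 to 0.48, Tdrd3 in DKO against Dnmt3l KO from -0.03 to 0.10, and Tdrd3 in the stage difference of Pld6 loss from -0.15 to 0.24. The last was -0.05 with the replicate block. Stk31 in DKO against Pld6 KO was -0.01 without the 2 P0 libraries that stood apart, and Tdrd9 under averaged loss of Pld6 was -0.25 with the marker covariate. Tdrd9 in L/Z Dnmt3l KO passed FDR under 0.05, without reaching 2-fold, under 6 alternatives, the lowest being 0.0147. Depth limited Tdrd6 most, with 4 fragments over both L/Z Dnmt3l KO libraries.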
